A study of Mus musculus with 8 samples.

Results

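The tripartite motif (TRIM) family of ubiquitin ligases was examined in mouse bone marrow-derived macrophages. Its members were taken as every probe of the array whose gene symbol begins with Trim followed by a digit, which gave 74 of 25697 probes and 50 of 18138 gene symbols. The choice used names only and no measured value. Bone marrow cells of female C57bl/6J mice, 8 weeks old, were cultured with GM-CSF (10 ng/ml) for 7 days, from wild type (WT) mice or from mice labelled iNOS-/-, in which *Nos2*, the gene for inducible nitric oxide synthase, is targeted in every cell of the body. They were left unstimulated or were driven to the M1 state over 6 h by LPS at 200 ng/ml together with IFN-γ at 10 ng/ml. Each genotype thus had an unstimulated and an M1 group, 4 groups in all, and each group had 2 arrays. The paper obtained the genotypes as separate stocks, and the name of its iNOS-deficient stock includes another strain besides C57bl/6J. The targeted gene and any strain sequence carried with it therefore cannot be told apart. Nothing in the labels ties the arrays to separate mice or cultures, so the p-values below measure the spread between arrays, which may be technical. The cells are bulk cultures, so fewer cells of a type and less RNA per cell cannot be told apart.

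TRIM proteins share an N-terminal arrangement of a RING finger, B-box zinc fingers and a coiled coil, and the RING finger gives most of them ubiquitin ligase activity. The C-terminal domain, most often a SPRY (B30.2) domain, sets what a member binds. Many SPRY members are interferon-stimulated genes that tag viral proteins or steer the receptors and kinases of innate immune signalling in macrophages, whereas others act on chromatin, the cytoskeleton or RNA.

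Each array measured the intensity of 50-base probes on beads, with a detection p-value per probe, the fraction of negative controls brighter than it. Between 46.0% and 49.3% of all probes were detected at p under 0.05, and arrays of the same group differed by a median of 0.161 to 0.187 on the log2 scale. The *Nos2* probe, near the end of the transcript, read 7.47 and 7.05 log2 intensity on the WT M1 arrays and 7.49 and 7.67 on the arrays labelled iNOS-/- M1. Whether the targeted allele lacks that stretch is not given in the sources used here, so this probe does not check the labels, and genotype is used below as labelled. Macrophage markers (*Csf1r*, *Cd68* and others) were detected for 8 of 8 genes, with a summed intensity of 22000 to 31100, and the T cell markers *Cd3e*, *Cd3d* and *Cd3g* and the B cell marker *Ms4a1* were detected on no array. The summed intensity of 8 tested dendritic cell markers was 337 to 383 in WT unstimulated cells, 6210 to 6230 in WT M1 cells, 5010 to 5230 in iNOS-/- unstimulated cells and 17300 to 18600 in iNOS-/- M1 cells, with *Flt3*, another listed marker, detected on no array. For 5 tested granulocyte markers the sums were 1140 to 1160, 1360 to 1460, 1680 to 1720 and 3720 to 3900 in the same order, with *Mpo* detected on no array.

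Of the 74 TRIM probes, 41 probes of 31 genes were detected on at least 2 arrays and were tested among 13868 probes. Among them, 22 were detected on all 8 arrays and 29 in all 4 groups, and none had passed through a single group. The 19 genes that were not tested were *Trim6*, *Trim9*, *Trim10*, *Trim13*, *Trim17*, *Trim31*, *Trim38*, *Trim40*, *Trim42*, *Trim50*, *Trim52*, *Trim54*, *Trim58*, *Trim60*, *Trim61*, *Trim63*, *Trim66*, *Trim67* and *Trim75*, of which 16 were detected on no array. These include *Trim63*, a ligase of striated muscle, and *Trim38*, listed here among the antiviral members.

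**Figure D1:**
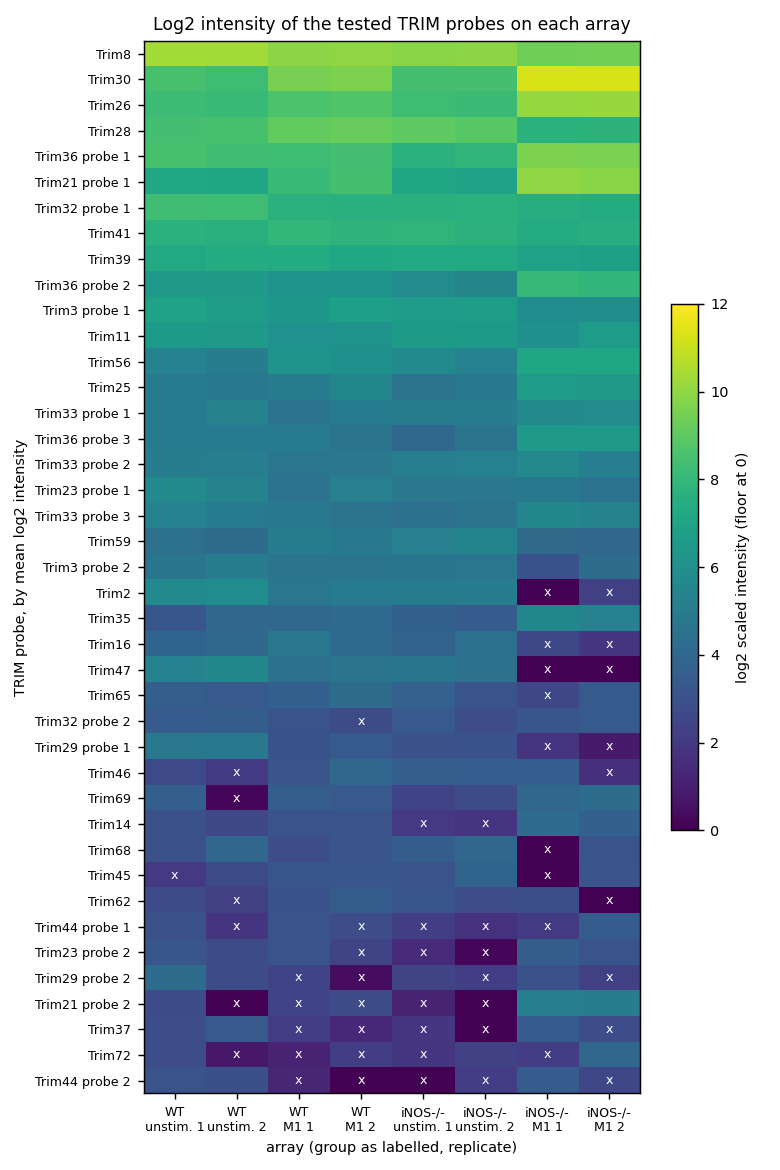
Heat map of the log2 intensity, after scaling between arrays and with a floor at 0, of the 41 tested TRIM probes (rows, brightest on top) on the 8 arrays (columns, 2 per group); a cross marks a probe that was not detected on that array. *Trim30*, *Trim26*, *Trim21* and *Trim36* are brightest on both iNOS-/- M1 arrays, where *Trim28* is dimmer and *Trim47* and *Trim2* are not detected.

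The first comparison asked how M1 cells differed between the genotypes. In the labelled iNOS-/- M1 cells 9 of the 31 TRIM genes were higher and 10 lower than in WT M1 cells, each gene taken at its brightest probe. The antiviral SPRY members *Trim21*, *Trim30*, *Trim26* and *Trim25* were among the higher ones, at between 2.38 and 3.23 times the WT level, and the chromatin corepressor *Trim28* was 2.72 times lower. Over probes, 23 of 41 were called at a limma adjusted p under 0.05 (13 higher, 10 lower), against 48.2% of all probes tested (22.9% higher, 25.3% lower), and 26 had an unadjusted p under 0.05. Among probes detected on all 8 arrays, 18 of 22 TRIM probes were called, against 56.8% of all such probes. The median log2 difference of the 41 TRIM probes was 0.34, or 0.17 with probes undetected in a group set at their bounds, and that of all probes was −0.03. Over the 31 genes at their brightest probe the median had the opposite sign, −0.24. *Trim36* and *Trim33* count once there and 3 times each among the probes. The groups did not overlap for 34 of the 41 TRIM probes and for 74.8% of all probes.

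The interferon-inducible and antiviral members were considered first. On the array were 9 genes of this list, of which *Trim6* and *Trim38* were detected nowhere. Of the 7 tested, 6 were higher in iNOS-/- M1 cells and 0 lower, with a median log2 difference of 1.25. Of all probes tested 22.9% were higher and 25.3% lower. The list was drawn up with earlier results of these data known. It leaves out lower SPRY members such as *Trim41*, and of all 16 tested SPRY genes 6 were higher and 4 lower. *Trim21*, a ligase that also serves as a cytosolic antibody receptor, had log2 intensities of 7.18 and 7.07 in WT unstimulated, 8.12 and 8.47 in WT M1, 7.06 and 6.90 in iNOS-/- unstimulated and 10.02 and 9.89 in iNOS-/- M1 cells. The unstimulated arrays of both genotypes lay between 6.90 and 7.18, both WT M1 arrays lay above them, and both iNOS-/- M1 arrays lay highest, with no overlap. *Trim21* rose 2.25-fold on activation of WT cells (log2 1.17, SE 0.15, adjusted p = 0.00367) and 7.85-fold on activation of iNOS-/- cells (log2 2.97, SE 0.15, adjusted p = 9.54e-05). The difference between these responses was 1.80 on the log2 scale (SE 0.21, adjusted p = 0.00235). A second *Trim21* probe was dim and not detected on either WT M1 array, and read 5.16 and 5.10 in iNOS-/- M1 cells. It was at least 7.01-fold higher there than in unstimulated iNOS-/- cells (adjusted p = 0.0111, of the fitted difference and not of the bound). That call was lost without iNOS-/- unstimulated replicate 2 (log2 3.98). This probe was not called between M1 groups (fitted log2 2.54, SE 0.94, adjusted p = 0.0756) or for the difference between responses (3.36, SE 1.33, adjusted p = 0.0978). The remaining *Trim21* probe was detected on no array.

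*Trim30*, which dampens Toll-like receptor signalling to NF-κB, read 8.50 and 8.29 in WT unstimulated, 9.54 and 9.61 in WT M1, 8.48 and 8.44 in iNOS-/- unstimulated and 11.29 and 11.25 in iNOS-/- M1 cells. Its order was that of *Trim21*. The responses were 1.18 in WT (SE 0.10, adjusted p = 0.00101) and 2.81 in iNOS-/- cells (SE 0.10, adjusted p = 4.25e-05), with a difference of 1.62 (SE 0.14, adjusted p = 0.00106). The mouse genome holds close *Trim30* copies side by side, so this probe may also read a paralogue. *Trim26*, a ligase encoded beside the MHC class I genes, had 8.21 and 8.15, 8.59 and 8.75, 8.28 and 8.19, and 10.11 and 10.16 in the same order of groups. The response was 0.49 in WT cells (SE 0.09, adjusted p = 0.0143) and 1.90 in iNOS-/- cells (SE 0.09, adjusted p = 9.67e-05), and their difference was 1.41 (SE 0.13, adjusted p = 0.00134). The WT response was no longer called without WT unstimulated replicate 1 (0.52, adjusted p = 0.0543), WT unstimulated replicate 2 (0.46, adjusted p = 0.0718) or WT M1 replicate 2 (0.41, adjusted p = 0.0653).

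The promoters of *Trim21*, *Trim26* and *Trim30* are shown because these genes rose in both genotypes and share a core of the interferon-stimulated response element (ISRE), which is GAAA, any 2 bases and GAAA again, searched on both strands. They were taken from RefSeq (GRCm38.p6), in which 38 of the 50 TRIM symbols had an entry of 250 bases before to 50 after a start site, and the capitals mark the ISRE core, read as its reverse complement in *Trim26* and *Trim30*.
Trim21, chr7:102565453-102565552, minus strand, from 70 bases before the start to base 30: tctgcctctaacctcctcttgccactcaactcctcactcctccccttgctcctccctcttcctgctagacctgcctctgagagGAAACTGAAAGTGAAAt
Trim26, chr17:36836896-36837145, plus strand, the 250 bases before the start: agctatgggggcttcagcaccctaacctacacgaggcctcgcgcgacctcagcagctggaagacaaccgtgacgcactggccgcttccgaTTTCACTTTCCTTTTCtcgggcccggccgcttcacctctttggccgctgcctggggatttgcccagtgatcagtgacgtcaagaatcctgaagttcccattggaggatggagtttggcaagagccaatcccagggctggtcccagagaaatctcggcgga
Trim30 (Trim30a in RefSeq), chr7:104465194-104465443, minus strand, the 250 bases before the start: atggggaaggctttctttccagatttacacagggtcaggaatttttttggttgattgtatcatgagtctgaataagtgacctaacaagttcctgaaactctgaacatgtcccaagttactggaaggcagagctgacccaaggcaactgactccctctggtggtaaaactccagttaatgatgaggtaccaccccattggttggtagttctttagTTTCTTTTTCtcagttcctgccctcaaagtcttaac
In *Trim21* and in *Trim26* a pair of overlapping matches forms each capital stretch. The core was found in 4 of the 38 TRIM genes, these 3 and *Trim2*, there at 1 of 5 start sites, against 3.99% of all genes and 3.44% of all windows of 300 bases. *Trim56*, which also rose in both genotypes, and *Trim25* had an entry without the core. *Trim2*, which has it, fell on activation of iNOS-/- cells. The γ-activated sequence TTCNNNGAA, on both strands, was found in 4 TRIM genes (*Trim31*, *Trim38*, *Trim45* and *Trim46*), against 9.55% of all genes and 8.30% of windows. No promoter was given for *Trim3*, *Trim8*, *Trim11*, *Trim14*, *Trim16*, *Trim17*, *Trim29*, *Trim33*, *Trim35*, *Trim36*, *Trim50* and *Trim65*. A match of letters is a description of the sequence and not of a bound site.

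*Trim25*, the ligase that activates the RNA sensor RIG-I, lay between 4.64 and 5.49 in 3 groups and higher in the last. It read 4.93 and 4.84 in WT unstimulated, 5.10 and 5.49 in WT M1, 4.64 and 4.83 in iNOS-/- unstimulated and 6.62 and 6.48 in iNOS-/- M1 cells. Its response was 1.82 in iNOS-/- cells (SE 0.16, adjusted p = 0.000557) and did not pass the test in WT cells (0.41, SE 0.16, adjusted p = 0.107), and the difference between the responses was 1.41 (SE 0.23, adjusted p = 0.00667). *Trim56*, an antiviral ligase of cytosolic DNA and RNA sensing pathways, read 5.34 and 5.10, 6.20 and 6.00, 5.69 and 5.31, and 7.04 and 7.05. Both M1 groups lay above both unstimulated groups, with a rise of 0.88 in WT (SE 0.17, adjusted p = 0.0137) and 1.54 in iNOS-/- cells (SE 0.17, adjusted p = 0.00116). The WT rise was not called without WT unstimulated replicate 2 (0.76, adjusted p = 0.0687) or WT M1 replicate 1 (0.78, adjusted p = 0.0676), and the difference between its responses, 0.66 (SE 0.24, adjusted p = 0.0796), did not pass the test.

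*Trim14*, a RING-less adaptor of the mitochondrial RNA sensing complex, was dim, at 2.99 and 2.58 in WT unstimulated, 3.14 and 3.10 in WT M1 and 4.20 and 3.71 in iNOS-/- M1 cells, and was not detected on either iNOS-/- unstimulated array. It was at least 3.11-fold higher in iNOS-/- M1 than in iNOS-/- unstimulated cells (adjusted p = 0.00103, of the fitted difference and not of the bound). Its difference between M1 groups, 0.84 (SE 0.22, adjusted p = 0.0256), fell to 0.10 when intensities under 16 were set to 16 (adjusted p = 0.322). *Trim69*, the seventh member tested, differed by 0.59 between the M1 groups (SE 1.06, adjusted p = 0.679).

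**Figure D2:**
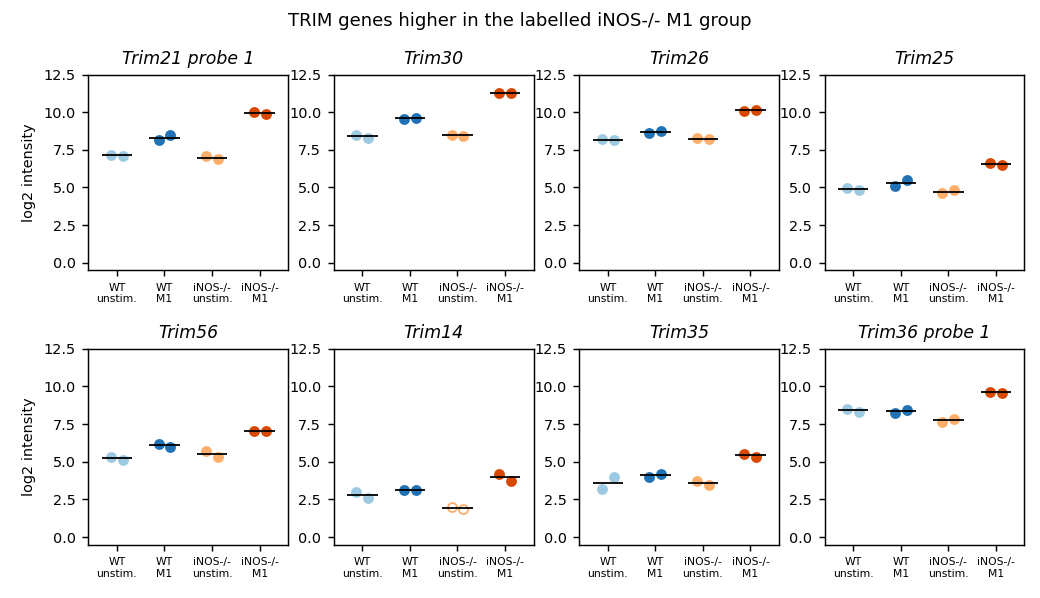
Log2 intensity of 8 TRIM genes that were higher in iNOS-/- M1 than in WT M1 cells; each circle is an array, open circles are arrays on which the probe was not detected, and bars are group means of 2 arrays. In every panel both iNOS-/- M1 arrays lie above the other 6, and in every panel except *Trim36* the WT M1 arrays lie between them and the unstimulated ones, in *Trim14* and *Trim35* by little.

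Some markers of other cell types also differed between the M1 groups. The dendritic cell and granulocyte sums given above were likewise highest in iNOS-/- M1 cells, with 3 of 8 dendritic cell markers higher and 1 lower, and 3 of 5 granulocyte markers higher and 0 lower, than in WT M1 cells. Of the dendritic cell markers 6 of 8 were already higher in unstimulated iNOS-/- cells, with a median of 3.59, and 6 of 8 had a negative difference of response, with a median of −2.38. Of the macrophage markers 5 of 8 were lower and 2 higher in iNOS-/- M1 than in WT M1 cells, with a median of −0.79, and 3 were lower and 1 higher before stimulation. Of all probes tested, 22.9% were higher and 25.3% lower between M1 groups, and 16.7% higher and 15.4% lower before stimulation. A negative difference of response was called for 22.6% of all probes. The part of these markers in the TRIM differences was not tested.

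*Trim35* and *Trim36* were higher in iNOS-/- M1 cells without having passed the test in WT. *Trim35*, a SPRY member that acts on IRF7 and on pyruvate kinase, read 3.22 and 3.98, 3.99 and 4.20, 3.74 and 3.48, and 5.51 and 5.34 in the order of groups used above, so that the first 3 groups lay between 3.22 and 4.20 and the last apart from them. Its response in iNOS-/- cells was 1.82 (SE 0.27, adjusted p = 0.00345). Its difference between M1 groups, 1.33 (SE 0.27, adjusted p = 0.0115), was not called without WT M1 replicate 1 (1.23, adjusted p = 0.0587) or iNOS-/- M1 replicate 1 (1.25, adjusted p = 0.0555). *Trim36*, a microtubule-associated member with a COS box, was measured by 3 tested probes and another that was detected nowhere. Its brightest probe read 8.50 and 8.31 in WT unstimulated, 8.26 and 8.42 in WT M1, 7.66 and 7.85 in iNOS-/- unstimulated and 9.65 and 9.57 in iNOS-/- M1 cells. The unstimulated iNOS-/- arrays were the lowest and the activated ones the highest, and the WT groups overlapped. The second probe, at 6.50 and 6.51, 6.14 and 6.20, 5.78 and 5.46, and 8.02 and 7.90, again had unstimulated iNOS-/- cells lowest and activated ones highest. Between M1 groups the 3 probes gave differences of 1.27, 1.79 and 1.66, and between the responses differences of 1.93, 2.68 and 2.26, all called. The first and second of them were also lower in unstimulated iNOS-/- than in unstimulated WT cells, by 0.65 (SE 0.12, adjusted p = 0.0137) and 0.89 (SE 0.13, adjusted p = 0.00618), and the dimmest probe, at −0.60 (SE 0.22, adjusted p = 0.094), did not pass. The first value was not called without WT unstimulated replicate 1 (adjusted p = 0.0693) or iNOS-/- unstimulated replicate 1 (adjusted p = 0.0706).

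The chromatin class, with PHD and bromodomains, had 2 tested genes that moved in opposite directions. *Trim28* (KAP1), the corepressor that KRAB zinc finger proteins recruit, read 8.41 and 8.50 in WT unstimulated, 9.13 and 9.22 in WT M1, 9.03 and 8.87 in iNOS-/- unstimulated and 7.68 and 7.78 in iNOS-/- M1 cells. The WT cells rose on activation and the iNOS-/- cells fell, and the iNOS-/- M1 arrays lay below all the others. The response was 0.72 in WT (SE 0.10, adjusted p = 0.00516) and −1.22 in iNOS-/- cells (SE 0.10, adjusted p = 0.000446), a difference of −1.94 (SE 0.14, adjusted p = 0.00068). *Trim33* (TIF1γ), which binds SMAD proteins in TGF-β signalling, was higher in iNOS-/- M1 than in WT M1 cells by 0.93 (SE 0.20, adjusted p = 0.0143), 0.68 (SE 0.18, adjusted p = 0.026) and 0.74 (SE 0.19, adjusted p = 0.0233) at its 3 tested probes. On its brightest probe the arrays read 4.97 and 5.37, 4.55 and 4.99, 5.03 and 5.04, and 5.64 and 5.77, and the difference of response was called there (1.07) and at the dimmest of the 3 (1.36), not at the other (0.57, adjusted p = 0.124). The first of these M1 differences was not called without WT M1 replicate 1 (0.71, adjusted p = 0.0554) or iNOS-/- M1 replicate 2 (0.87, adjusted p = 0.0635). The second was lost without either WT M1 array (0.66 and 0.69, adjusted p = 0.0962 and 0.0878), and the last when any of the 4 M1 arrays was left out (0.63 to 0.85, adjusted p = 0.0503 to 0.104). The difference of 1.07 was not called when 1 of 6 arrays was left out (0.84 to 1.13, highest adjusted p = 0.0895), any but WT unstimulated replicate 1 and WT M1 replicate 2.

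*Trim59*, a membrane-anchored ligase, also had its highest values in WT M1 and iNOS-/- unstimulated cells and its lowest in iNOS-/- M1 cells. It read 4.45 and 4.26 in WT unstimulated, 5.08 and 4.83 in WT M1, 5.24 and 5.41 in iNOS-/- unstimulated and 4.13 and 3.96 in iNOS-/- M1 cells. It was lower between M1 groups by 0.90 (SE 0.14, adjusted p = 0.00473) and higher between unstimulated groups by 0.97 (SE 0.14, adjusted p = 0.00611), and its responses differed by −1.87 (SE 0.20, adjusted p = 0.00189). Genes of dividing cells (*Top2a*, *Birc5*, *Ccnb1*, *Plk1* and *Cdc2a*) were likewise highest in WT M1 and iNOS-/- unstimulated cells, though iNOS-/- M1 cells lay above WT unstimulated cells: their summed intensity was 507 to 572, 1650 to 1780, 1900 to 1920 and 662 to 674, and all 5 were lower in iNOS-/- M1 than in WT M1 cells and higher in the other 2 groups than in WT unstimulated cells. Of all probes, 25.3% were lower between M1 groups, 16.7% higher between unstimulated groups and 20.8% higher on activation of WT cells. The part of the genes of dividing cells in the values of *Trim28* and *Trim59* was not tested.

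Other members were lower in iNOS-/- M1 cells, and several of them fell below detection there. *Trim47*, a SPRY ligase, read 5.30 and 5.54 in WT unstimulated, 4.45 and 4.62 in WT M1 and 4.65 and 4.49 in iNOS-/- unstimulated cells and was not detected on either iNOS-/- M1 array, which makes it at least 3.11-fold lower than in WT M1 cells (adjusted p = 0.000103). Both iNOS-/- M1 values were set to the floor, log2 0, so the fit saw no spread there. Here and for the bounds below, the p-value is that of the fitted difference and not of the bound. *Trim2*, an NHL-domain ligase known from neurons, read 5.75 and 5.84, 4.69 and 4.91, and 5.03 and 5.07 in the first 3 groups and was likewise undetected in iNOS-/- M1 cells, at least 3.74-fold below WT M1 (adjusted p = 0.00948). *Trim16*, a RING-less member linked to the autophagy of damaged membranes, read 3.89 and 4.04, 4.79 and 4.20, and 3.82 and 4.40 and was at least 3.02-fold lower in iNOS-/- M1 cells (adjusted p = 0.00428). With intensities under 16 set to 16 its difference was −0.49 and no longer called (adjusted p = 0.179). The *Trim2* call was lost in the fit on the 4 arrays of the M1 groups (adjusted p = 0.0565). Each of these 3 genes was detected on the other 6 arrays, so that the last group stood apart. *Trim29*, a RING-less inhibitor of innate signalling, differed in that WT unstimulated cells alone were high, at 4.82 and 4.84, against 3.02 and 3.42 in WT M1 and 2.99 and 3.02 in iNOS-/- unstimulated cells, and it was at least 1.25-fold lower in iNOS-/- M1 than in WT M1 cells (adjusted p = 0.00804). All M1 arrays read under an intensity of 16 at this probe. With such values set to 16 the difference was therefore bound to be 0.00. A second, dimmer *Trim29* probe gave 1.22 in the other direction (SE 0.81, adjusted p = 0.27).

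*Trim8*, a regulator of NF-κB and SOCS1, was the brightest TRIM probe on average, at 10.34 and 10.32 in WT unstimulated, 9.91 and 10.03 in WT M1, 9.89 and 9.90 in iNOS-/- unstimulated and 9.36 and 9.46 in iNOS-/- M1 cells. It was lower in each of the 4 comparisons of groups, by 0.56 between M1 groups (SE 0.09, adjusted p = 0.00449) and by 0.48 on activation of iNOS-/- cells (SE 0.09, adjusted p = 0.00687). The WT response (−0.36, SE 0.09, adjusted p = 0.0279) was called in 9 of 16 alternatives and was lost in the fit on 4 arrays and when any WT or iNOS-/- unstimulated array was left out (−0.42 to −0.30, highest adjusted p = 0.114), and the difference between unstimulated groups (−0.44, SE 0.09, adjusted p = 0.0163) when any of the 4 unstimulated arrays was left out (−0.45 to −0.43, highest adjusted p = 0.0773). *Trim3*, an NHL ligase, was lower between M1 groups by 0.74 (SE 0.16, adjusted p = 0.0136) at its brighter probe, a call lost without iNOS-/- M1 replicate 1 (−0.69, adjusted p = 0.0614), and its dimmer probe had −0.99 (SE 0.41, adjusted p = 0.103). *Trim39* and *Trim41* were lower by 0.39 (SE 0.12, adjusted p = 0.0437) and 0.45 (SE 0.11, adjusted p = 0.0204). The *Trim39* call held in 5 of 16 alternatives and was lost with quantile normalization, with the replicate block, in the fit on 4 arrays, with no detection filter and when any array other than WT M1 replicate 2 was left out (−0.45 to −0.27, highest adjusted p = 0.166). The *Trim41* call was lost without WT M1 replicate 1 (−0.37, adjusted p = 0.0914) or iNOS-/- M1 replicate 1 (−0.39, adjusted p = 0.0847).

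**Figure D3:**
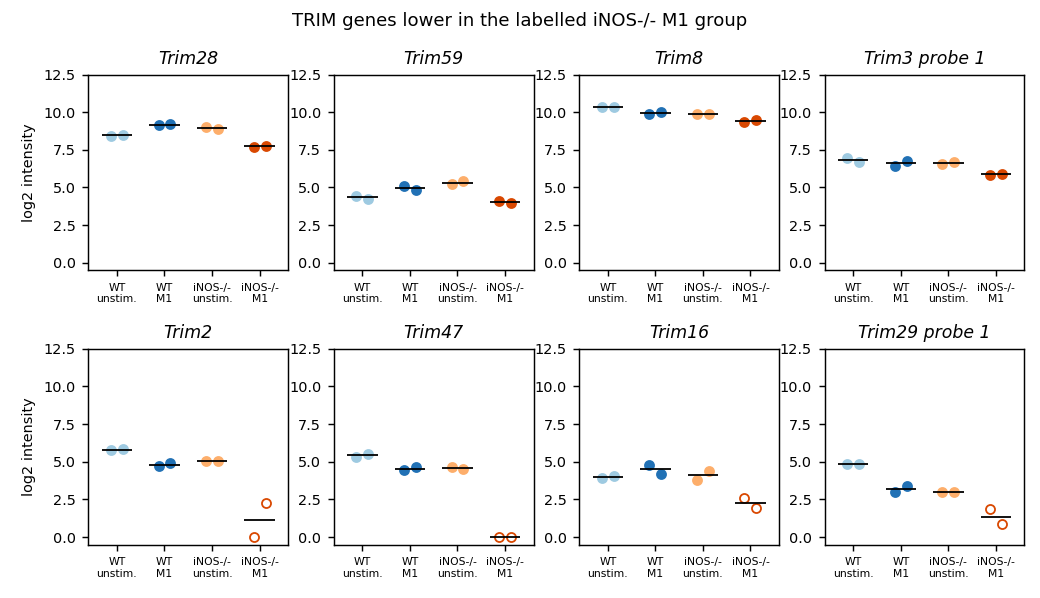
Log2 intensity of 8 TRIM genes that were lower in iNOS-/- M1 than in WT M1 cells, drawn as for the higher genes; open circles are arrays on which the probe was not detected, whose order has no meaning. *Trim28* and *Trim59* are higher in WT M1 and iNOS-/- unstimulated cells than in WT unstimulated cells, and *Trim2*, *Trim47* and *Trim16* are undetected on both iNOS-/- M1 arrays.

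Before stimulation the genotypes differed at fewer TRIM genes. Of 41 probes 10 were called (2 higher, 8 lower in iNOS-/- cells), against 32.2% of all probes (16.7% higher, 15.4% lower), and 14 had an unadjusted p under 0.05. Among probes detected on all 8 arrays 6 of 22 were called, against 38.0%. The median log2 difference was −0.15, or −0.13 with undetected groups at their bounds, and −0.03 over the 31 genes, against 0.00 for all probes. The higher genes were *Trim28*, by 0.50 (SE 0.10, adjusted p = 0.0177), and *Trim59*. The first was not called without WT unstimulated replicate 1 (0.45, adjusted p = 0.0871), WT unstimulated replicate 2 (0.54, adjusted p = 0.0575) or iNOS-/- unstimulated replicate 1 (0.41, adjusted p = 0.0871). Among the lower ones, *Trim32*, an NHL ligase mutated in limb-girdle muscular dystrophy, read 8.33 and 8.28 in WT unstimulated, 7.65 and 7.63 in WT M1, 7.60 and 7.66 in iNOS-/- unstimulated and 7.49 and 7.39 in iNOS-/- M1 cells. WT unstimulated cells were thus the only high group at this probe. The fall was 0.68 between unstimulated groups (SE 0.08, adjusted p = 0.00369) and 0.66 on activation of WT cells (SE 0.08, adjusted p = 0.00375). A second, dim *Trim32* probe was called in no comparison. It had −0.40 between unstimulated groups (SE 0.22, adjusted p = 0.238) and −0.53 on activation of WT cells (SE 0.22, adjusted p = 0.123). *Trim29* differed by −1.82 (SE 0.34, adjusted p = 0.0135), which was not called when any of the 4 unstimulated arrays was left out (−1.84 to −1.80, adjusted p = 0.0634 to 0.0668), and *Trim47* by −0.85 (SE 0.13, adjusted p = 0.00657). *Trim21*, *Trim30*, *Trim26*, *Trim25* and *Trim56* did not pass the test, with differences between −0.15 and 0.28. Without WT unstimulated replicate 1 the count was 5, and without iNOS-/- unstimulated replicate 1 it was 6.

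In WT cells 10 of 41 probes were called on activation (6 higher, 4 lower), against 35.1% of all probes (20.8% higher, 14.3% lower), and 15 had an unadjusted p under 0.05. The higher genes were *Trim21*, *Trim30*, *Trim56*, *Trim26*, *Trim28* and *Trim59*, and the lower ones *Trim8*, *Trim29*, *Trim32* and *Trim47*. The *Trim29* response (−1.61, SE 0.34, adjusted p = 0.0186) was not called when any of the 4 WT arrays was left out (−1.81 to −1.41, adjusted p = 0.0517 to 0.0868). Of the 7 antiviral members tested, 4 rose and 0 fell. Among probes detected on all 8 arrays 8 of 22 were called, against 41.9%. The median log2 response of all TRIM probes was −0.10 and that of the 31 genes at their brightest probe 0.34, against 0.09 for all probes. The split of calls changed with the scaling: 5 higher and 8 lower with quantile normalization, and 5 higher and 15 lower with neqc, a background correction that used the detection p-values, followed by normalization. The rise of *Trim59* (0.60, SE 0.14, adjusted p = 0.0263) ranged from 0.20 to 0.72 over the alternatives and was called with neither of these. Without WT unstimulated replicate 2 the count was 6.

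In iNOS-/- cells 25 of 41 probes were called on activation (15 higher, 10 lower), against 50.3% of all probes (25.2% higher, 25.1% lower), and 26 had an unadjusted p under 0.05. Among probes detected on all 8 arrays, 17 of 22 TRIM probes were called, against 58.2% of all such probes. Over the 31 genes 10 were higher and 10 lower. The median was 0.21 over probes and −0.24 over genes (−0.19 with undetected groups at their bounds), against 0.00 for all probes. Of the 7 antiviral members, 6 rose and 0 fell, with a median of 1.90, or 1.82 with *Trim14* at its bound. This comparison shares its M1 arrays with the comparison between M1 groups, so both counts rest on the same 2 arrays.

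The test of the difference between the 2 responses called 20 of 41 probes (15 with a positive and 5 with a negative difference, iNOS-/- minus WT), against 42.0% of all probes (19.4% positive, 22.6% negative), and 24 had an unadjusted p under 0.05. Among probes detected on all 8 arrays 14 of 22 were called, against 50.1%. Over the 31 genes 10 were positive and 5 negative, with a median of −0.04. Of the antiviral members, 5 of 7 rose more in iNOS-/- than in WT cells (*Trim21*, *Trim30*, *Trim26*, *Trim25* and *Trim14*) and 0 had a negative difference, with a median of 1.41. *Trim32* is also among the positive ones, as its brighter probe fell by 0.66 in WT and by 0.19 in iNOS-/- cells, the second fall not called. Its dimmer probe did not pass (0.73, SE 0.31, adjusted p = 0.118). A probe each of *Trim23*, *Trim37* and *Trim44*, which carry ARF, TRAF-like and zinc finger domains, was near background, at no more than 3.54 log2 intensity on any array and detected on 5, 3 and 3 arrays. The differences of response fitted there were all positive. With intensities under 16 set to 16 they were bound to be 0.00, since every array lies under 16 at these probes. The other tested probes of *Trim23* (0.61, SE 0.37, adjusted p = 0.237) and *Trim44* (0.20, SE 0.83, adjusted p = 0.869) did not pass. Among the 5 negative differences, *Trim28* and *Trim59* rose in WT and fell in iNOS-/- cells. *Trim16* and *Trim41* fell in iNOS-/- cells and were not called in WT cells, though the fall of *Trim41* (−0.35, adjusted p = 0.0432) was not called when any of the 8 arrays was left out. *Trim47* fell in both genotypes, and *Trim16* and *Trim47* lie below detection in iNOS-/- M1 cells. With intensities under 16 set to 16 the difference of *Trim47* was 0.32 (adjusted p = 0.203). *Trim2* (−2.93, SE 0.99, adjusted p = 0.0656), *Trim8* (−0.12, SE 0.12, adjusted p = 0.463) and *Trim29* (−0.04, SE 0.48, adjusted p = 0.951) did not pass. The value of *Trim2* rests on iNOS-/- M1 arrays where it was not detected.

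**Figure D4:**
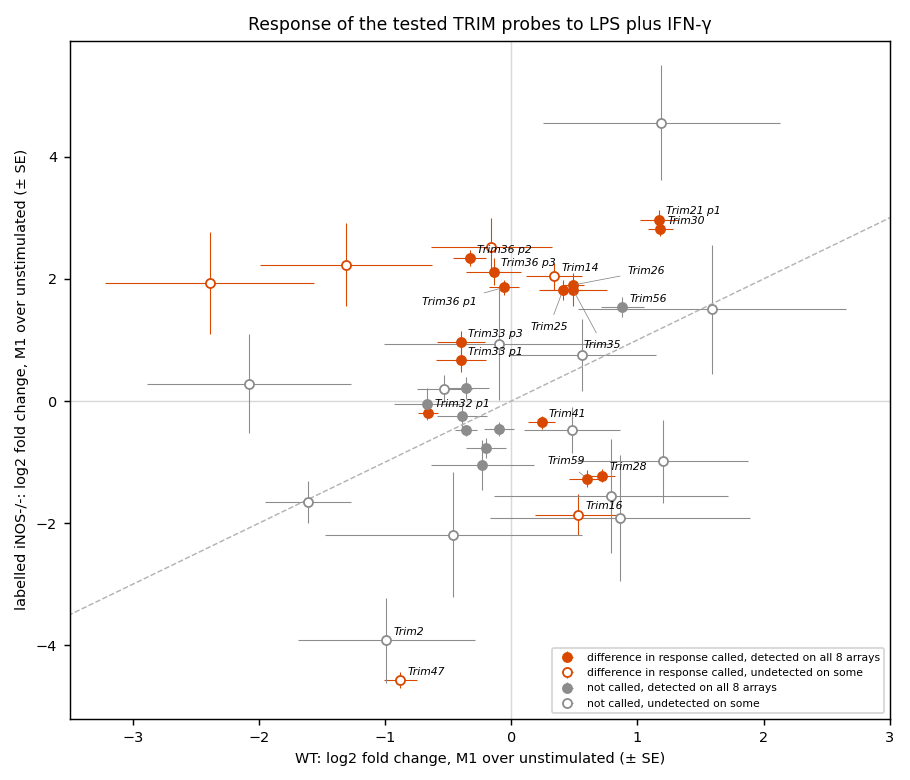
Log2 fold change on activation in WT cells (horizontal) and in iNOS-/- cells (vertical) for the 41 tested TRIM probes, with the standard error of the fit; filled points were detected on all 8 arrays and the dashed line marks equal responses. *Trim21* (1.17 and 2.97) and *Trim30* (1.18 and 2.81) rise on both axes, *Trim36* lies above 0 on the vertical axis alone, and *Trim28* (0.72 and −1.22) lies in the lower right.

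By domain class, the counts for the comparison between M1 groups were 6 higher and 4 lower of 16 SPRY genes, 1 higher and 1 lower of 2 chromatin genes, 0 higher and 2 lower of 3 NHL genes, and 1 higher and 0 lower of 2 COS box genes. Of 4 genes with other C-terminal domains 0 were higher and 1 lower, and of 4 with no known C-terminal domain 1 was higher and 2 lower. The RING-less members, which overlap these classes, had 1 higher and 2 lower of 4. Of all probes tested 22.9% were higher and 25.3% lower, and most classes hold too few genes to be set against these shares. Members that were called in no comparison were *Trim11*, *Trim45*, *Trim46*, *Trim62*, *Trim65*, *Trim68*, *Trim69* and *Trim72*, of which *Trim11*, at 0.17 between M1 groups (SE 0.20, adjusted p = 0.51), was detected on all 8 arrays.

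The pathways on which TRIM ligases act were read from the same fit. Of 13 tested genes of cytosolic RNA sensing, 9 were higher and 1 lower in iNOS-/- M1 than in WT M1 cells, with a median of 1.11, against 22.9% and 25.3% of all probes. On activation 7 rose and 0 fell in WT, against 20.8% and 14.3%, and 10 rose and 1 fell in iNOS-/- cells, against 25.2% and 25.1%. *Ddx58*, which encodes RIG-I, the substrate of *Trim25*, was higher between M1 groups by 1.85 (SE 0.10, adjusted p = 0.000246), and *Rnf135*, another ligase of RIG-I with the TRIM-like RING and SPRY domains, by 1.43 (SE 0.08, adjusted p = 0.000273). *Nlrx1*, an inhibitor of this pathway, was the lower gene, by −0.54 (SE 0.10, adjusted p = 0.00733). Of the ISG15 conjugation genes, 3 of 3 tested were higher, among them *Ube2l6*, its conjugating enzyme (1.73, SE 0.10, adjusted p = 0.00027). In interferon signal transduction 10 of 11 genes were higher, such as *Irf1* (1.42, SE 0.11, adjusted p = 0.000467), and 1 was lower, *Ifngr1*, a chain of the IFN-γ receptor (−2.18, SE 0.11, adjusted p = 0.000209). Before stimulation 6 of these 11 genes were already higher and 2 lower in iNOS-/- cells, 2 of 3 ISG15 conjugation genes were higher and 0 lower, and 2 of 13 RNA sensing genes were higher and 3 lower, against 16.7% and 15.4% of all probes.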

How the data were processed

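Total RNA was hybridised to an Illumina mouse bead array, named MouseRef-8 in the labels and MouseWG-8 in the methods. The authors deposited a bead-averaged intensity per probe, not normalized between arrays, and a detection p-value beside it. The submitters' processing notes name GenomeStudio and limma 3.14.4, and the methods name background subtraction and rank-invariant normalization. Undetected probes lay around 0 and 25.2% to 27.2% of probes lay below 0, so no further background was subtracted.

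Scale factors of 0.813 to 1.30, one per array, were set against the array mean over rank-invariant probes (rank within 0.05, between 0.5 and 0.9 of all ranks) with rlm of MASS 7.3.60.0.1 and no intercept. Values under 1 were set to 1 and log2 was taken. Probes with detection p under 0.05 on at least 2 of 8 arrays were kept. A model of 4 groups was fitted with limma 3.58.1 (lmFit and eBayes, R 4.3.3), and p-values are 2-sided and Benjamini-Hochberg adjusted over 13868 probes. A probe undetected on both arrays of a group has a bound there, taken as the higher of its own and the lowest detected value per array. A p-value printed beside a bound is that of the fit on the floored values and does not test the bound. Some genes of the lists are not reported here. Gene names are those of the array, and the brightest probe stands for a gene. The members, lists and tests were chosen with earlier results of these data known. A member was described on every array if called and within the 6 largest changes of a comparison (higher group detected on both arrays); further members were described by role. On simulated data with few changed probes, none of them dim, the fit recovered most of these. It called more unchanged probes than the adjustment aims for, so counts are approximate. Changes at dim probes, or at a large share of probes as found here, were not simulated. Precision is limited by 2 arrays per group.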

Additional observations from a re-analysis of the deposited data

Results flagged for a closer look

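Responses to activation that differed between the genotypes by the test of the difference itself are listed here, as the iNOS-/- minus the WT log2 fold change. Among the antiviral members this was 1.80 for *Trim21*, 1.62 for *Trim30*, 1.41 for *Trim26* and 1.41 for *Trim25*, with 1.70 for the dim *Trim14*. *Trim35* had 1.33, the *Trim36* probes had 1.93, 2.68 and 2.26, and the *Trim33* probes had 1.07 and 1.36. *Trim32* had 0.47 at its brighter probe, from a smaller fall in iNOS-/- cells, and its dimmer probe did not pass. The calls of *Trim35* and *Trim32* held in 7 of 15 alternatives each and were lost with the replicate block, and that of the first *Trim33* value held in 8 of 15. Negative differences were found for *Trim28* (−1.94), *Trim59* (−1.87), *Trim41* (−0.59), *Trim16* (−2.39) and *Trim47* (−3.68). Near the background, a probe each of *Trim23*, *Trim37* and *Trim44* had 2.68, 3.54 and 4.32, and the other tested probes of *Trim23* and *Trim44* did not pass. These last 3 values and those of *Trim14*, *Trim16* and *Trim47* rest on arrays where the probe was not detected and on the floor that was set, so they are fitted values and not bounds.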

How the results depend on the processing

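The counts of called TRIM probes stayed within 1.5 times the reported ones under every alternative normalization, floor, filter and fit, except that neqc called 20 probes in the WT response in place of 10. Leaving out each array in turn gave 16 to 24 probes between M1 groups, 5 to 11 between unstimulated groups, 6 to 13 in the WT response, 19 to 26 in the iNOS-/- response and 15 to 20 for the difference of responses. A replicate block gave 22, 10, 11, 24 and 18 probes in the same order, where the reported counts were 23, 10, 10, 25 and 20; deviations of same-numbered arrays correlated by −0.04 to 0.02, so the numbers were not taken to pair the arrays. The fit on the 4 arrays of the M1 groups called 17 probes (12 higher, 5 lower), of which 16 were among the 23. Quantile normalization moved the median of all probes in the iNOS-/- response from 0.00 to −0.13. Of 1382 single-probe values under alternatives, 1187 kept direction and call, 194 lost the call and 1 changed direction: the response difference of *Trim47* was 0.32 with a floor of 16 (adjusted p = 0.203), under which its undetected arrays are set near its detected ones. With that floor the response differences at the called probes of *Trim23*, *Trim37* and *Trim44* were bound to be 0.00, since all their values lie under it. Called under every alternative run were 12 of the 23 probes between M1 groups (*Trim8*, *Trim21*, *Trim25*, *Trim26*, *Trim28*, *Trim30*, *Trim47*, *Trim56*, *Trim59* and 3 of *Trim36*), 3 of 10 between unstimulated groups, 4 of 10 in the WT response, 14 of 25 in the iNOS-/- response and 10 of 20 for the difference. Dim probes are limited by signal over background, and 2 arrays per group limit all comparisons.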
